A study of Mus musculus with 90 samples.

Results

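The histone modification H3K9me3 and the proteins Uhrf1 and Trim28 were compared within WT mouse embryonic stem cells (mESCs) of the V65 strain. The data came from 6 of the 90 samples of the series, with 2 peak lists for each mark. H3K9me3 and Trim28 were measured by ChIP-seq in cells labelled WT. Uhrf1 was measured with an anti-FLAG antibody by ChIPmentation, in which a transposase adds the adapters on the beads, in V65 cells labelled WT + Uhrf1 FLAG TAG that carry the tag on the endogenous gene and were grown from isolated clones. In every comparison of Uhrf1 with H3K9me3 or Trim28, the mark, the assay and the tagged cells differ together and cannot be told apart. All cells were grown on feeder cells with serum and LIF, and neither a treatment nor an age is given. J1 cells labelled Dnmt3a + Dnmt3b KO + Dnmt1 shRNA (TKOL), a clonal line that lacks active Dnmt3a and Dnmt3b and has Dnmt1 knocked down, served as a comparison, again with the FLAG tag in the Uhrf1 samples alone. The labels do not say whether the replicates came from separate cultures, so the spread between lists may be technical.

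A peak was kept when it overlapped a peak of the other replicate of the same mark by at least 1 bp, and kept peaks of both replicates were merged into regions, on chromosomes 1 to 19, X and Y of mm9. This gave 13647 regions of H3K9me3, 13117 of Uhrf1 and 6094 of Trim28, 32858 in all. The lists held 29438 and 25951 peaks for H3K9me3, 30133 and 49155 for Uhrf1, and 25716 and 17501 for Trim28, so that the Uhrf1 replicates differed most in length. Of these peaks, 47.9% and 54.6%, 45.3% and 27.1%, and 23.7% and 35.4% were found in the other replicate. The lists carry no read counts, so the depth reached in each library cannot be read from them.

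H3K9me3 is a mark of silent heterochromatin, and in mESCs it lies over many endogenous retroviruses. Trim28, also known as Kap1, is a corepressor that KRAB zinc finger proteins bring to such elements and that recruits the H3K9 methyltransferase Setdb1. Uhrf1 binds hemimethylated CpGs and methylated H3K9 and brings the maintenance methyltransferase Dnmt1 to replicated DNA. Intracisternal A particles (IAPs) are among the most active retroviruses of the mouse genome. Each full copy is flanked by long terminal repeats (LTRs) and starts its internal part with a leader and the gag gene.

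Most of the sequence that carried more than 1 mark was repeated, and the stretches that recurred most are shown here with CpG dinucleotides in capitals. They were taken from the words of 31 bases present in the most sites of each combination of marks, so that their presence there is a description, and those of IAP copies are written in the direction of gag. The first recurred most in sites with all 3 marks, the second in sites with Uhrf1 and Trim28, the third had the highest share of its copies in Uhrf1 regions among the words found, the fourth led the sites with Uhrf1 alone, and the last 2 led outside IAPs, in sites with H3K9me3 and Trim28 and with H3K9me3 alone.
gag word: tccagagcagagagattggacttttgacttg
leader word: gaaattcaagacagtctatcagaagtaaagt
second leader word: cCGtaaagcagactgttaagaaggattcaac
LTR word: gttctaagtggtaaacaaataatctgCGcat
H3K9me3 and Trim28 word: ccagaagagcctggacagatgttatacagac
H3K9me3 word: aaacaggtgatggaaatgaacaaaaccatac

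IAP copies were located in the genome with sequences that the study designed itself. The gag primer pair matched 809 products, with both primers required to match exactly. Copies that differ from a primer were missed, so the products are only a part of the IAP copies with gag. Of the 1500 genome copies of the gag word, 53.1% lay in the windows around these products. A search with the IAP LTR amplicon of 113 bases, which holds 6 CpGs, found 7528 copies over at least 90% of its length. The amplicon ran opposite to gag in 1604 of the 1616 copies (99.3%) that lie within 3000 bp before and 8000 bp after a gag product. The amplicon and the gag primers are shown as designed.
IAP LTR amplicon: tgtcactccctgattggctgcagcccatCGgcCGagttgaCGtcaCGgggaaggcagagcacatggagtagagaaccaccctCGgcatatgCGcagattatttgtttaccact
gag forward primer: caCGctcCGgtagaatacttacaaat
gag reverse primer: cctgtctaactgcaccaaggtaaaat

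To ask how far the marks share sites, each region was compared with the regions of the other marks and with the share expected if it were placed at every possible position between the first and last peak of its chromosome. Of the Trim28 regions, 53.5% overlapped H3K9me3, 26.5% overlapped Uhrf1, 15.9% overlapped both and 35.9% stood alone. Of the H3K9me3 regions, 23.4% overlapped Trim28, 19.4% Uhrf1 and 7.25% both, with 64.4% alone. Of the Uhrf1 regions, 20.4% overlapped H3K9me3, 12.1% Trim28 and 7.49% both, and 75.0% stood alone. Among reproducible regions, Trim28 was thus alone least often and Uhrf1 most often. For Uhrf1 this cannot be told apart from its different assay and tagged cells. The shares moved when a list was left out and all peaks of its partner were used. Without Trim28 replicate 1 or 2, the share of Trim28 regions with H3K9me3 was 23.9% or 26.6%. Without Uhrf1 replicate 1 or 2, the shares of Uhrf1 regions were 10.1% or 10.7% with H3K9me3, 4.81% or 5.80% with Trim28, and 3.20% or 3.36% with both. Without Trim28 replicate 2, they rose to 22.6% with Trim28 and 12.3% with both. The order of the marks also turned. Without Trim28 replicate 1 or 2, Trim28 was alone more often (71.2% or 67.6%) than H3K9me3 (59.7% or 45.1%). Without H3K9me3 replicate 1 or 2, H3K9me3 was alone more often (76.5% or 78.4%) than Uhrf1 (71.4% or 70.1%).

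**Figure D1:**
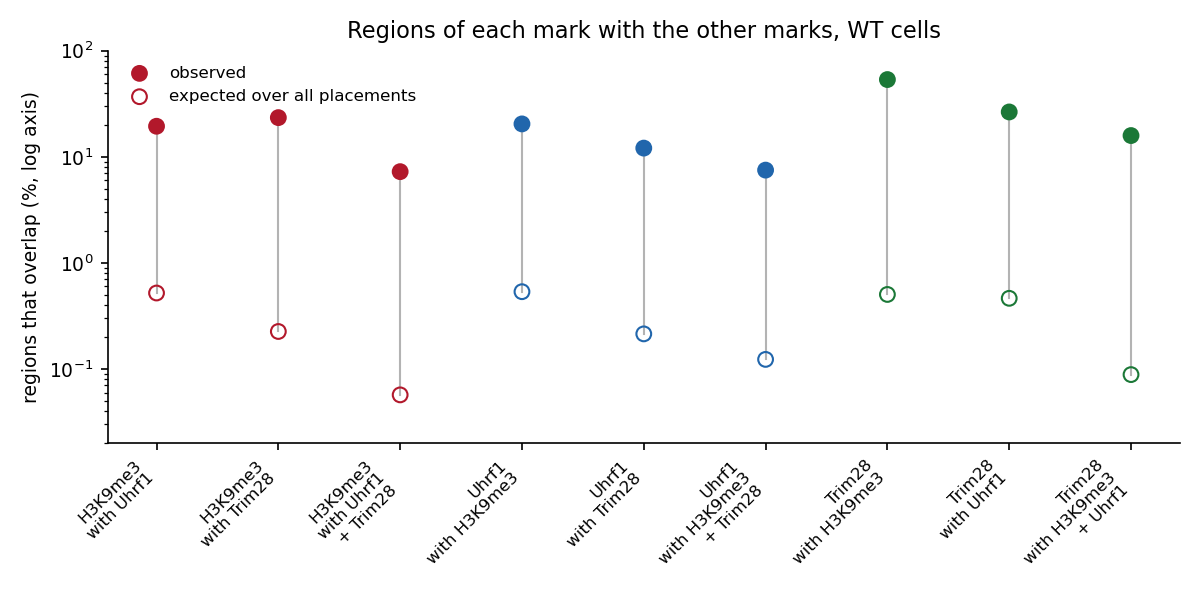
Share of regions of each mark that overlap the other marks (filled points, percent on a log axis) beside the share expected over all placements of the same regions (open points), in WT cells. All 9 observed shares lie above the expected ones, from 7.25% against 0.0570% to 53.5% against 0.504%.

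All pairs of marks overlapped more often than their placement gives. The placements took no account of repeated sequence, so a shared preference of the marks for repeats cannot be told apart in these ratios. The expected share of Trim28 regions with H3K9me3 was 0.504%, which the observed share exceeded 106-fold. For Uhrf1 regions the expected shares were 0.535% with H3K9me3, 0.214% with Trim28 and 0.123% with both, and the observed shares were 38.2, 56.4 and 60.9 times as high. These ratios depended on which peaks were allowed. When 1 Trim28 list was left out and all peaks of the other were used, the ratio of Trim28 with H3K9me3 was 60.3 without replicate 1 and 62.9 without replicate 2, and that of Uhrf1 with Trim28 was 28.0 and 30.0. Without Uhrf1 replicate 1 the ratios of Uhrf1 were 25.0 with H3K9me3, 30.6 with Trim28 and 36.7 with both, and without replicate 2 that with both was 40.3.

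Single lists gave nearly the same shares, which is in part built in. Each list was cut to peaks that overlap the other replicate, and both were compared with the same regions of the other marks. Alone were 65.8% and 65.9% of the reproducible peaks in the H3K9me3 lists, 77.2% and 75.8% in the Uhrf1 lists, and 36.3% and 36.7% in the Trim28 lists. The means were 65.8% ± 0.0919, 76.5% ± 0.969 and 36.5% ± 0.278 (SD, n = 2 lists each), and the lists of different marks did not overlap. These SDs do not measure the spread between independent replicates. An exact permutation test over the 6 lists gave p = 0.0667, the smallest value that its 15 partitions allow, so that the design cannot pass a threshold of 0.05. Because the lists of a mark are not independent here, no conclusion is drawn from it.

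**Figure D2:**
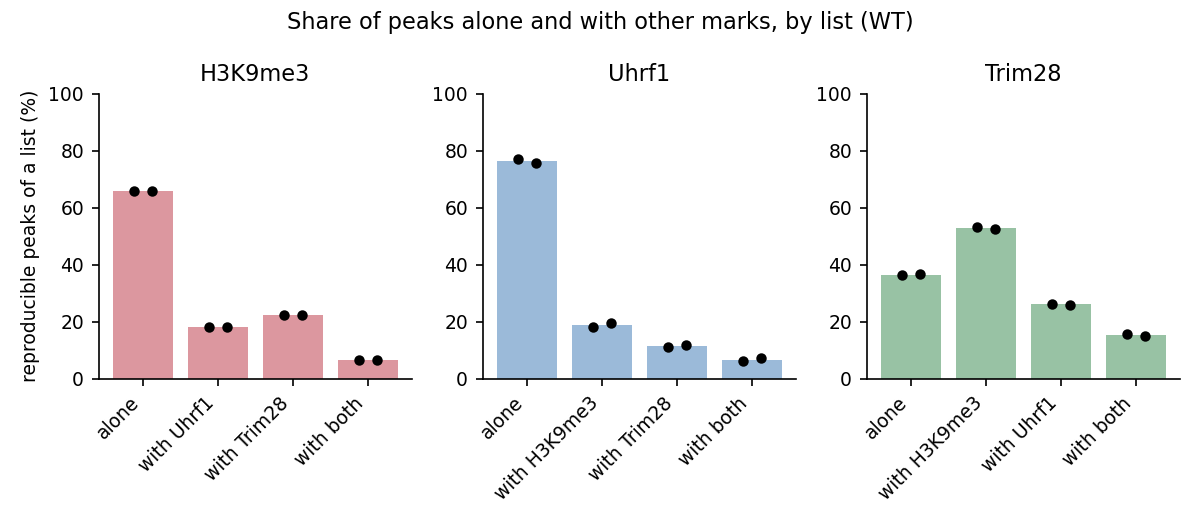
Share of the reproducible peaks of each list that stand alone, overlap a named mark or overlap both (percent, bars for the mean of 2 lists, points for the lists). The points of a mark lie close to each other, and the Trim28 lists have 36.3% and 36.7% of their peaks alone, against 65.8% or more in the other 4. Each list holds only peaks that overlap the other list of its mark, so this closeness is in part built in.

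The observed shares exceeded the expected ones at every width. Regions had a median width of 410 bp for H3K9me3, 441 bp for Uhrf1 and 327 bp for Trim28. Among Trim28 regions, the share with H3K9me3 was 31.7% in the narrowest 25% (up to 257 bp) and 84.0% in the widest (over 444 bp). The expected share changed less, from 0.411% to 0.659%, and the ratio was 77.1 in the narrowest and 127 in the widest 25%. For Uhrf1 the ratios with H3K9me3 ranged from 31.5 to 43.7 over the same division by width, without a steady trend.

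Overlapping regions of any mark were joined into 26105 sites, which fell into 7 combinations. Uhrf1 alone made up 9835 sites (37.7%) and H3K9me3 alone 8790 (33.7%). Trim28 stood alone at 2186 sites (8.37%) and with H3K9me3 at 2142 (8.21%). H3K9me3 and Uhrf1 shared 1546 sites (5.92%), all 3 marks 1025 (3.93%) and Uhrf1 and Trim28 without H3K9me3 581 (2.23%). The number of sites with all 3 marks was 1585 without Uhrf1 replicate 1 and 1682 without Trim28 replicate 2.

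In most sites with all 3 marks, the regions shared a part of their bases. At 906 of the 1025 sites (88.4%) some bases carried all 3, with a median of 265 bp, and at the other 119 sites a region of 1 mark linked the others. H3K9me3 covered 75.0% of the bases of these sites, Uhrf1 61.3% and Trim28 46.0%, and 24.8% were covered by all 3. Their median width was 1060 bp, against 363 bp for H3K9me3 alone, 416 bp for Uhrf1 alone and 280 bp for Trim28 alone. The median fold enrichment of H3K9me3 was lower there (2.89 ± 0.0740, SD, n = 2 lists) than where H3K9me3 stood alone (3.31 ± 0.0709). That of Trim28 was 4.29 ± 0.0857 with all 3 marks and 3.78 ± 0.0761 alone, and that of Uhrf1 was 3.31 ± 0.0146 and 3.14 ± 0.146. With 2 lists a group, none of these differences can pass an exact test.

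The combinations differed in CpG content. Sites with Uhrf1 held a median of 2.80 CpGs per 100 bases where it stood alone, 2.77 with H3K9me3, 4.18 with Trim28 and 3.40 with both. Sites without Uhrf1 held 1.18 (H3K9me3), 0.965 (Trim28) and 1.20 (both), and the genome holds 0.834. Windows of the same width moved by 50 kb to either side held means of 0.689 to 1.01. GC content varied less, with medians from 43.9% to 48.9% against 41.8% in the genome.

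The motif TGCCGC, which the zinc finger protein Zfp57 binds in its methylated form, was searched on both strands. It occurred in 68.3% of the sites with Uhrf1 and Trim28, 49.7% of those with all 3 marks, 35.6% with H3K9me3 and Uhrf1, and 25.0% with Uhrf1 alone. It occurred in 13.2% of the sites with H3K9me3 and Trim28, 8.62% with H3K9me3 alone and 3.06% with Trim28 alone. In the moved windows it was found in 1.52% to 6.73%. The motif holds a CpG and the combinations differ in width and CpG content, so these shares are a description of sequence only.

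**Figure D3:**
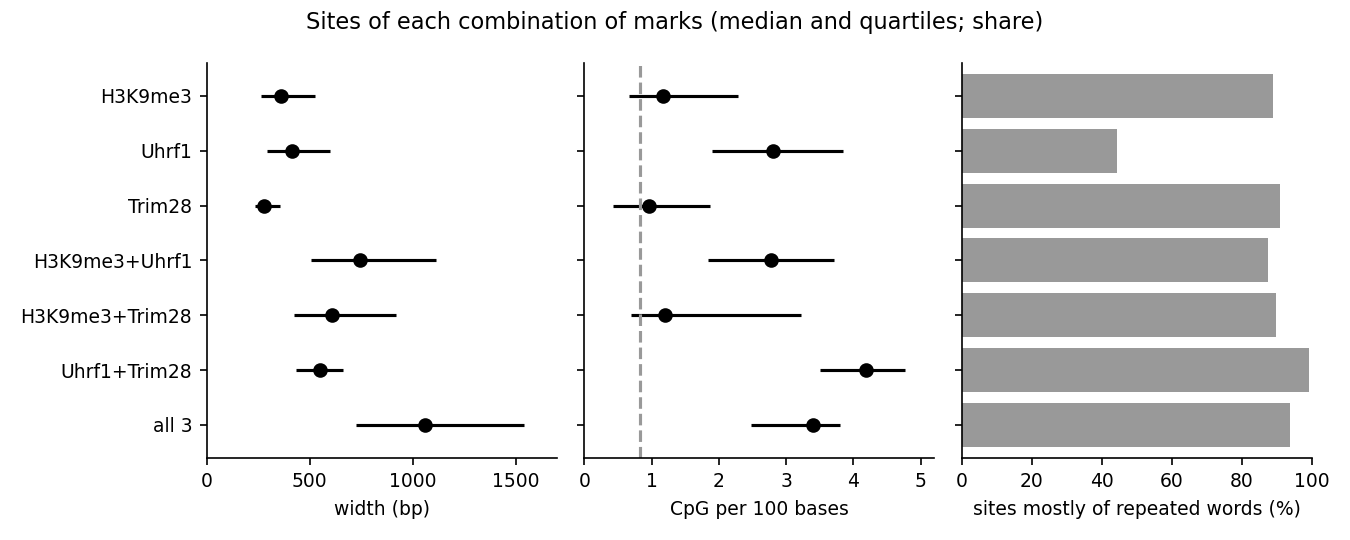
Width in bp and CpGs per 100 bases (points for medians, bars for quartiles) and the share of sites in which at least 50% of the 31-base words have 10 or more copies in the genome (bars), for the 7 combinations of marks in WT cells, with the CpG content of the genome as a dashed line. Sites with all 3 marks are the widest (median 1060 bp), the 4 combinations with Uhrf1 have the most CpGs, and Uhrf1 alone has the lowest repeated share (44.4%).

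Repeated sequence prevailed in every combination except Uhrf1 alone. A site was called repeated when at least 50% of its words of 31 bases occurred at least 10 times in the genome, where 11.5% of words do. Such sites made up 99.1% of those with Uhrf1 and Trim28, 93.8% with all 3 marks, 90.9% with Trim28 alone, 89.7% with H3K9me3 and Trim28, 88.9% with H3K9me3 alone and 87.4% with H3K9me3 and Uhrf1. Of the sites with Uhrf1 alone, 44.4% were repeated and 5470 were not. The study aligned ChIP-seq reads with BWA mem at its default setting and describes no step for ChIP-seq reads that match several copies. The part of such reads in the repeated sites was not tested.

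The sites with Uhrf1 alone differed by this measure. The 4365 repeated sites held 3.55 CpGs per 100 bases and were intergenic in 78.6% and intronic in 20.7%. The 5470 others held 2.31, lay in introns in 45.5%, in exons in 5.58% and within 1 kb of a start in 2.67%, and were intergenic in 46.2%. Of all known bases of the genome, 34.1% are intronic, 2.27% exonic, 3.10% within 1 kb of the start of a protein-coding transcript and 60.5% intergenic.

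The sites with Uhrf1 alone as a whole were intergenic in 60.6%, close to the share of the genome, and the other combinations lay between genes more often. With all 3 marks, 79.5% of the sites were intergenic, 17.5% intronic, 2.73% at promoters and 0.293% exonic. The intergenic share was 83.8% with Uhrf1 and Trim28, 78.5% with H3K9me3 and Uhrf1, 78.1% with H3K9me3 alone, 75.2% with Trim28 alone and 73.9% with H3K9me3 and Trim28. Promoters held 0.323% to 1.68% of the sites of the other 6 combinations, all below their share of the genome. Chromosome X, with 6.33% of the known bases, carried 11.8% of the sites with H3K9me3 alone and 2.11% of those with Uhrf1 alone, and between 5.37% and 9.44% of the other combinations.

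Next, the marks were placed along the IAP copies that the gag primers matched exactly. Of the 809 windows around a gag product, 793 had an LTR copy on both sides. Regions of H3K9me3 lay in 99.5% of the windows, of Uhrf1 in 97.0% and of Trim28 in 90.9%, where placement gives 4.51%, 4.34% and 2.30%. All 3 marks were present in 88.1% of the windows, and none was without a mark. In the single lists, peaks lay in 100.0% of the windows for both H3K9me3 lists, 98.6% and 100.0% for Uhrf1, and 99.5% and 95.9% for Trim28.

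Within the element the regions of the marks, merged over both lists, took different positions. H3K9me3 covered most copies over gag, up to 81.8% at 200 to 300 bp from the start of the product, and stayed at 48.1% at 1100 bp. Trim28 had a peak at 100 to 200 bp, where 71.4% of the copies were covered, and another in the leader at -900 bp, with 40.5%, and between them at -600 bp it covered 0.742%. Uhrf1 was highest at -900 to -800 bp, just inside the first LTR, with 86.4% of the copies, and had 46.1% at the gag product. There the single Uhrf1 lists differed, with 35.2% and 81.6% of the products covered. No profile was made for single lists, so the lower Uhrf1 share at gag is uncertain. Uhrf1 rose again to 34.6% at 3900 bp and to 39.4% at 5400 bp, beside the second LTR, where H3K9me3 covered 9.77% and Trim28 10.3%. H3K9me3 covered 6.67% at -900 bp, where Uhrf1 was highest.

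**Figure D4:**
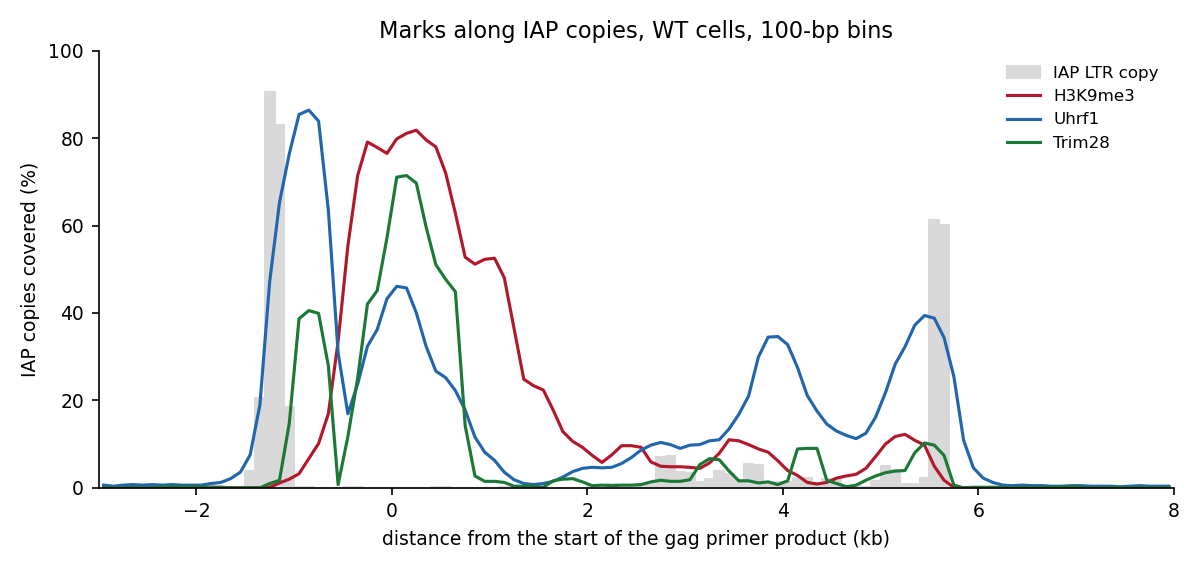
Share of the 809 IAP copies matched exactly by the gag primers that a region of each mark (lines) or an LTR copy (grey) covered, in bins of 100 bp. Distance is in kb from the start of the gag primer product, in the direction of the product. Uhrf1 peaks beside the first LTR with 86.4%, H3K9me3 over gag with 81.8%, and Trim28 in both places with 40.5% and 71.4%. The lines use regions of both lists together, and the single Uhrf1 lists covered 35.2% and 81.6% of the gag products.

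The recurring words shown above were chosen by the marks of their sites. The shares of their copies in regions are thus a description and give no separate evidence for the profile. The gag word lay at a median of 239 bp from the product start and was found in 437 of the 1025 sites with all 3 marks. Of its 1500 copies in the genome, 66.4% lay in regions of H3K9me3, 43.9% of Trim28 and 32.1% of Uhrf1. The leader word lay at -720 bp and was found in 337 of the 581 sites with Uhrf1 and Trim28 (58.0%) and in 31.7% of those with all 3 marks. Of its 2868 copies, 55.0% lay in Uhrf1 regions, 28.8% in Trim28 regions and 19.5% in H3K9me3 regions. The second leader word, at -838 bp, was in Uhrf1 regions at 84.8% of its 1442 copies, in Trim28 regions at 29.5% and in H3K9me3 regions at 5.96%.

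The LTR word led the sites with Uhrf1 alone and was found in 799 of them. Of its 4718 copies, 99.7% lay in the LTR copies found with the amplicon, and 33.3% lay in Uhrf1 regions, against 5.13% in H3K9me3 regions and 5.07% in Trim28 regions. The second most recurrent word of these sites was a repeat of the dinucleotide CA, in 580 sites. Sites with H3K9me3 and either other mark were also led by words of IAPs. The first word of H3K9me3 and Uhrf1, in 243 sites, had 51.4% of its copies near a gag product, and that of H3K9me3 and Trim28, in 284 sites, had 58.8%. The H3K9me3 and Trim28 word shown above came next in that combination, with 269 sites, and 0.179% of its 10601 copies lay near a gag product. The H3K9me3 word was in 822 of the 8790 sites with H3K9me3 alone, and 0.161% of its 9297 copies lay near a gag product.

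The gag product itself was covered by H3K9me3 in 79.1% of the copies, by Trim28 in 70.7% and by Uhrf1 in 46.0%. Peaks of the single lists covered 72.1% and 70.7% for H3K9me3, 78.5% and 55.4% for Trim28, and 35.2% and 81.6% for Uhrf1. The Uhrf1 lists thus differed widely at gag, with a mean of 58.4% ± 32.8 (SD, n = 2 lists), and no order between Uhrf1 and the other marks can be given there. All 3 marks met at 32.8% of the products, H3K9me3 and Trim28 without Uhrf1 at 31.5%, and 10.4% were without a region.

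LTR copies lay in Uhrf1 regions more often than in those of the other marks, but most lay in none. Of the 7528 copies, 30.4% lay in Uhrf1 regions, 4.95% in H3K9me3 regions and 3.33% in Trim28 regions, and 66.5% in none. Single lists gave 24.9% and 38.0% for Uhrf1, 7.08% and 6.24% for H3K9me3, and 5.27% and 4.08% for Trim28, without overlap between Uhrf1 and the others. The placement shares were 0.320% for Uhrf1, 0.336% for H3K9me3 and 0.119% for Trim28. The observed shares exceeded them 95.1-fold, 14.8-fold and 28.1-fold. The Uhrf1 share was 59.8% at the 1633 LTR copies within 10 kb of a gag product and 22.2% at the 5895 others. Only exact primer matches counted as products, so the others may include LTRs of copies with gag.

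Copies most like the amplicon carried the marks most often. Among the 1239 LTR copies with at least 95% identity, 68.5% lay in Uhrf1 regions, 17.8% in Trim28 regions and 9.85% in H3K9me3 regions. Among the 2190 copies below 85%, these shares were 13.3%, 0.0913% and 5.21%. Between these limits the Uhrf1 share was 27.7% for copies of 85 to 90% identity and 28.1% for those of 90 to 95%. For the same classes the H3K9me3 share was 5.56% and 2.16%, and the Trim28 share 1.34% and 0.336%. The shares of H3K9me3 and Trim28 thus did not rise steadily with identity. The identity classes were not divided by nearness to a gag product or by reads that match several copies, so the part of these was not tested.

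To see how much of the overlap lay at IAPs, sites were divided by whether an IAP LTR copy or gag product lay within 10 kb. Such stretches make up 4.20% of the chromosome length and held 34.2% of all sites. They held 887 of the 1025 sites with all 3 marks (86.5%) and 564 of the 581 with Uhrf1 and Trim28 (97.1%). The shares were 59.1% with H3K9me3 and Uhrf1, 35.9% with H3K9me3 and Trim28, 29.8% with Uhrf1 alone, 26.9% with H3K9me3 alone and 22.5% with Trim28 alone.

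**Figure D5:**
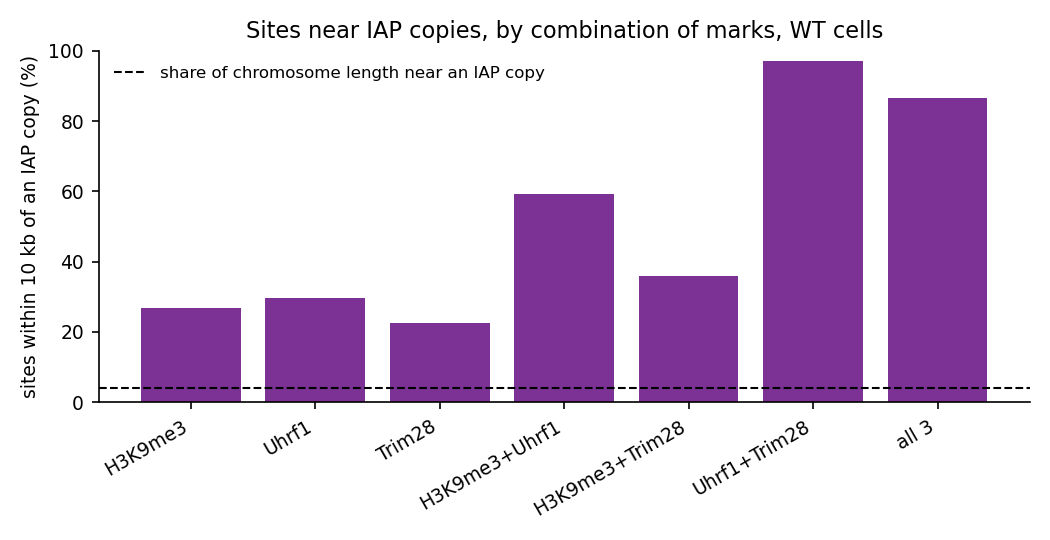
Share of the sites of each combination of marks within 10 kb of an IAP copy (bars, percent), with the share of chromosome length within that distance as a dashed line (4.20%), in WT cells. The bars of the 2 combinations that hold Uhrf1 and Trim28 together are the highest, with 97.1% and 86.5%.

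For the part away from IAP copies, both the regions and their placements were kept more than 10 kb from any copy found. H3K9me3 was still present there at 47.1% of the 3240 Trim28 regions, 139 times the expected share. Trim28 was found at 2.04% of the 7708 Uhrf1 regions, 17.8 times the expected share, where it was 12.1% and 56.4 times genome-wide. Nearly all of these lay with H3K9me3 too, at 140 of 157 Uhrf1 regions. H3K9me3 was found at 10.1% of the Uhrf1 regions, 30.6 times the expected share, and 138 sites with all 3 marks were left.

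Of the strongest sites with all 3 marks, by the ranking given below, most were short tandem repeats and none held a gag product. A site was called tandem when at least 25% of its bases lay in runs of a unit of up to 6 bases, repeated without a mismatch over at least 24 bases. This held for 52 of the 1025 sites with all 3 marks (5.07%), against 0.0976% of the moved windows. Their share was higher in the combinations that hold Trim28 without Uhrf1, with 8.36% of the sites with H3K9me3 and Trim28 and 8.23% of those with Trim28 alone. Tandem sites made up 0.516% to 3.43% of the other 4 combinations. Moved windows of the combinations other than all 3 marks held 0.291% to 0.915%. With Uhrf1 and Trim28, the share of 0.516% was near the 0.344% of its moved windows. The median fold enrichment of H3K9me3 was 11.6 ± 0.299 (SD, n = 2 lists) at these sites and 2.85 ± 0.0727 at the 973 others. For Trim28 it was 6.61 ± 2.14 and 4.26 ± 0.0526, and for Uhrf1 3.82 ± 0.0739 and 3.30 ± 0.0236. The tandem sites were poor in CpGs, with a median of 0.245 per 100 bases. The input libraries were not analysed, and the part of reads that match several places in these fold enrichments was not tested.

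Sites were ranked by the lowest of their 3 mean fold enrichments, a rule that chose the following from these values, which are therefore a description. Of the 10 highest, 8 were tandem, none held a gag product or overlapped a DMR, all were CpG-poor (0 to 0.758 per 100 bases), and 9 were intergenic. The values just inside and just outside the rule were 5.21, for the site near Rragc, and 5.16, for a site near Ier5.

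The highest was near Nefm, a neurofilament gene, at chr14:68910686-68911125, 168 kb from its start and intergenic. Its fold enrichment was 13.9 and 14.6 for H3K9me3, 8.62 and 7.13 for Uhrf1, and 9.91 and 7.63 for Trim28 in replicates 1 and 2. A site near Cd97, a gene of an adhesion receptor, at chr8:86280529-86281056 had 17.8 and 17.7 for Trim28, above the median of 4.29 over the sites with all 3 marks, and it holds 34 units of telomeric DNA, TTAGGG.

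Telomeric units inside chromosomes were found mainly where H3K9me3 and Trim28 lay together. Of the sites with H3K9me3 and Trim28, 108 (5.04%) held 2 units of TTAGGG in a row on either strand, and 14 of those with all 3 marks (1.37%) and 21 of those with Trim28 alone (0.961%) did. With H3K9me3 alone there were 6 (0.0683%), and none in the 3 combinations of Uhrf1 without both other marks. Among the moved windows of the 7 combinations the share was 0 to 0.0976%.

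Other sites of the rule lay near Pthlh (chr6:147185093-147185555), Igsf11 (chr16:39052623-39053084), Gdf3 (chr6:122565331-122566195), Prlhr (chr19:60486245-60486694) and Rragc (chr4:123832861-123833318), all tandem, with lowest fold enrichments of 5.21 to 7.56. A pair near Sec16b, at chr1:159807350-159807675 and chr1:159529436-159529736, held no tandem run and had words with medians of 5298 and 5934 copies. Uhrf1 had the lowest fold enrichment of the 3 marks at 9 of the 10 sites.

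The longest sites had another make-up. The longest, 8639 bp at chr8:125949733-125958371, had its midpoint in an intron of a protein-coding gene. The nearest start was that of Def8, 12.8 kb away, and the intron was not assigned to a named gene. This site held 3.81 CpGs per 100 bases, and 11.4% of its words were repeated. Its fold enrichment was 1.60 for H3K9me3, 2.57 for Uhrf1 and 3.55 for Trim28. The next were 3945 bp near 4930578C19Rik (chrX:18344213-18348157) and 3939 bp near Gm8597 (chr17:13609114-13613052), with 96.4% and 97.7% of repeated words. The site near Gm8597 carried H3K9me3 at 2.40 and 2.37, Uhrf1 at 3.41 and 3.21, and Trim28 at 3.97 and 4.20 in replicates 1 and 2, and it overlapped a DMR. It holds a gag product, shown here as the 300 bases around it on the minus strand, chr17:13612426-13612725, with 17 CpGs in capitals.
Gm8597 site: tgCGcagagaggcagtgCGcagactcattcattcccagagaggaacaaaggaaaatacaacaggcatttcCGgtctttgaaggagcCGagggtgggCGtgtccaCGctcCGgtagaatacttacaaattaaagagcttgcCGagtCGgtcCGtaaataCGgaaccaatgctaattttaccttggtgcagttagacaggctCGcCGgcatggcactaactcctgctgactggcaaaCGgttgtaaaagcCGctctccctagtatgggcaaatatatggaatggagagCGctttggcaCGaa

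The study's 1515 filtered DMRs, regions that gained methylation once Dnmt1 was restored, touched every combination. The DMRs overlapped 24.4% of the sites with all 3 marks, 20.3% with Uhrf1 and Trim28, 12.6% with H3K9me3 and Uhrf1, 7.70% with H3K9me3 and Trim28, 5.39% with Uhrf1 alone, 5.05% with H3K9me3 alone and 4.85% with Trim28 alone. Wider sites touch a DMR more easily, and median widths ranged from 280 bp (Trim28 alone) to 1060 bp (all 3 marks). No expected share was computed, so these shares are a description only. All 250 of the DMR sites with all 3 marks were repeated, and none of the 64 sites that were not repeated overlapped a DMR. Outside DMRs the ratio of Uhrf1 with Trim28 was 54.4, close to 56.4 genome-wide.

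Genes were rarely marked at their starts. Of 37273 annotated genes, 0.687% had H3K9me3 within 1 kb of a transcript start, 1.07% Uhrf1, 0.378% Trim28 and 0.0885% all 3. The 33 genes with all 3 marks were mostly predicted genes, among them Gm10715 to Gm10722, neighbours on chromosome 9 with serial names whose peaks are uncertain where reads match several of them, and also Ank1, a gene of a membrane skeleton adaptor, and Gria1, a gene of a glutamate receptor subunit. None of 36 imprinted genes had all 3 marks there, and only Peg3, an imprinted zinc finger gene, had 1, Trim28. None of 24 germline genes had all 3. Sycp1, of the synaptonemal complex, had H3K9me3 and Trim28, and Dpep3 and Zcwpw1 had Uhrf1.

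Of 343 genes named Zfp, 2 had H3K9me3 at a start (Zfp386 and Zfp781), 3 had Uhrf1 (Zfp407, Zfp462 and Zfp640) and none had Trim28, shares close to those of all genes. None of 15 pluripotency genes had a mark, and of 16 housekeeping genes Eef1a1, a translation factor, had Trim28. Over the whole gene body, 1.44% of all genes held all 3 marks, as did the germline genes Mov10l1 and Zcwpw1 and the genes Zfp277 and Zfp69.

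TKOL cells gave 17406 regions of H3K9me3, 4999 of Uhrf1 and 7540 of Trim28 by the same steps. Of the WT sites with all 3 marks, 95.6% had H3K9me3 in TKOL, 89.3% Trim28 and 33.8% Uhrf1, and 28.9% had all 3. WT sites with Uhrf1 alone had Uhrf1 in TKOL in 6.32%. These sites were chosen by their marks in WT, so lower shares in TKOL are built in, and the reverse was not computed. The TKOL Uhrf1 lists also held fewer peaks, 17437 and 14811 against 30133 and 49155 in WT. These shares therefore do not measure a loss of Uhrf1. Among the reproducible Uhrf1 peaks, the share with both other marks was 6.33% and 7.23% in the WT lists and 10.4% and 10.2% in the TKOL lists. The difference of 3.48 percentage points gave p = 0.333 in an exact two-sided permutation test, the smallest value that 2 against 2 lists allow. Strain, clone and DNA methylation differ together between these cells and cannot be told apart.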

How the data were processed

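Per the labels and methods, the authors mapped reads with BWA to mm9, dropped duplicates (GATK) and ran MACS2 in broad mode on single replicates. A deposited list holds the fold enrichment of every peak, a ratio over background. It also holds deposited -log10 values of the p-value and of the q-value. Input libraries, DKO0 lists and all other assays were not analysed here. Samples were grouped by their titles. Regions, combinations and shares were computed as described above with Python 3.11.15, numpy 2.4.6 and numba 0.67.0. The expected share was computed exactly over all start positions, without draws and without a p-value, and tested on simulated data. The genome sequence and the GENCODE annotation were of the build of the files. IAP copies were found with blastn 2.17.0 (E-value 1e-10). Location was taken at the midpoint, in the order promoter, exon, intron, intergenic. Named sites were the 10 with all 3 marks whose lowest mean fold enrichment was highest and the 3 longest. Of these, 1 is not reported here. No site with all 3 marks lay at an imprinted gene, so none is shown. Of the gene lists, 36 of 38 imprinted, 24 of 25 germline, 15 of 16 pluripotency and 16 of 16 housekeeping genes were matched. Members and lists were chosen with earlier results of these data known, and the repeat, tandem and IAP steps after the files were seen.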

Additional observations from a re-analysis of the deposited data

How the results depend on the processing

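Every ratio to the expected share stayed above 1 under every alternative tried. For Trim28 with H3K9me3, Uhrf1 with H3K9me3, Uhrf1 with Trim28 and Uhrf1 with both, the ratios of 106, 38.2, 56.4 and 60.9 became 1224, 338, 634.0 and 992 when peaks needed a q-value of 5 or more on the -log10 scale, which left 937, 557 and 424 regions of H3K9me3, Uhrf1 and Trim28 and 54 sites with all 3 marks. With an equal number of peaks per list they became 128, 54.1, 85.7 and 86.3, with 6585 Uhrf1 regions and 667 sites with all 3 marks. With only the bases covered by both replicates they became 158, 49.8, 94.7 and 89.3. An overlap of at least 50% of the shorter region moved the last 3 to 33.8, 62.1 and 52.9, and regions moved by 50 kb gave 53.7 and 65.5 for the last 2. Outside the DMRs the third was 54.4. Away from IAP copies, an alternative chosen after seeing the data, they were 139, 30.6, 17.8 and 32.2, with 8597, 7708 and 3240 regions and 138 sites with all 3 marks.

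The share of regions alone, 64.4% for H3K9me3, 75.0% for Uhrf1 and 35.9% for Trim28, became 68.9%, 77.1% and 38.6% with the stricter overlap, 67.4%, 70.9% and 47.9% with the q-value, 63.2%, 68.3% and 41.2% with equal lists, 72.5%, 80.4% and 42.9% with the bases of both replicates, and 74.7%, 89.6% and 52.3% away from IAP copies. When each list was left out, the ratios ranged from 60.3 to 106, 25.0 to 38.2, 28.0 to 56.4 and 36.7 to 60.5. The order of the shares alone turned without either Trim28 list (Trim28 above H3K9me3) and without either H3K9me3 list (H3K9me3 above Uhrf1). The shares alone ranged from 45.1% to 78.4% for H3K9me3, 69.2% to 88.3% for Uhrf1 and 27.9% to 71.2% for Trim28, the sites with all 3 marks from 1099 to 1682, and the regions from 13647 to 29438, 13117 to 49155 and 6094 to 25716. Leaving out a list lets in all peaks of its partner, so that unreproduced peaks enter. Placement without unknown bases moved no ratio beyond the spread between lists.

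With the replicate number as a block, p was 0.167 between marks and 0.500 between WT and TKOL, the smallest values those pairings allow. The labels do not say that a replicate number marks a shared culture or day, so the lists are taken to share only a number, and 2 lists per mark are too few to check this. A promoter of 5 kb held 6.73% of the sites with all 3 marks, and all annotated genes gave 3.22%. The lists hold no read counts, so a region without a peak may be one that was not detectable.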
